A study of Homo sapiens with 24 samples.

Results

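The genes described here are 38 members of the amino acid response: the transcription factor ATF4 with its partners and stress-linked targets (10 regulators), enzymes of serine, glycine, one-carbon, asparagine and proline synthesis (8), amino acid carriers of the plasma membrane (7) and cytosolic aminoacyl-tRNA synthetases (13). They were chosen by symbol from a table of 25341 named genes, and all 38 passed the expression filter that left 15113 genes for testing. RNA sequencing measured them in TPM, a transcript abundance scaled for length and depth, in 4 multiple myeloma cell lines, KMS-12-BM, KMS-12-PE, MM1R and MM1S, all grown in RPMI medium with fetal bovine serum. In each line, 3 libraries came from cells electroporated with a pool of siRNAs against IRF4, a transcription factor on which myeloma cells depend, and collected at 48 h (siIRF4), and 3 came from cells labelled as DMSO at 0 h (CTRL). No control siRNA is named in the labels, so loss of IRF4, siRNA delivery, electroporation, DMSO and time in culture cannot be told apart in any change from CTRL to siIRF4. The labels do not say whether the 3 libraries of a group came from separate cultures, so each p-value speaks of the spread among these libraries alone. In bulk RNA of this kind, fewer cells of a type and less RNA per cell cannot be told apart either.

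ATF4 is the main effector of the integrated stress response. Kinases that sense a lack of amino acids, misfolded protein in the endoplasmic reticulum, lack of heme or double-stranded RNA phosphorylate the initiation factor eIF2, which lowers general translation and favours translation of the ATF4 mRNA. ATF4 then binds amino acid response elements, often together with a C/EBP partner, at genes that import, make and load amino acids onto tRNA. Myeloma cells secrete large amounts of immunoglobulin and have a correspondingly high demand for amino acids. ATF4 activity is set largely by translation, so its mRNA level alone does not report the protein.

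Libraries held between 17299851 and 27382497 recovered reads. IRF4 itself was lower in siIRF4 in each line, with log2 changes of -0.39 in MM1R, -1.01 in MM1S, -1.07 in KMS-12-PE and -0.70 in KMS-12-BM. All 7 plasma cell markers listed reached a mean of 1 TPM in all 8 groups, although SDC1 (CD138) was low in KMS-12-BM, at 6.05 ± 0.43 TPM in CTRL (mean ± SD, n = 3), as was SLAMF7 at 1.76 ± 0.27 TPM. Markers of other cell types stood in all 4 lines, with stromal genes and keratins in MM1S and KMS-12-PE. The 5 stromal genes listed (collagens, DCN and LUM) had 5 members at a mean of 1 TPM or more in CTRL of both lines and 4 in siIRF4, with none at 0. They ranged in sum from 56.2 to 85.6 TPM for CTRL of KMS-12-PE and from 19.1 to 26.7 TPM for its siIRF4 libraries, and from 55.5 to 122 TPM for CTRL and 61.8 to 81.8 TPM for siIRF4 of MM1S. Their sum was at most 1.498 TPM in MM1R or KMS-12-BM libraries. The 4 epithelial genes summed to 224 to 246 TPM in KMS-12-PE CTRL and 163 to 184 TPM in siIRF4, and KRT5 among them went from 55.8 ± 5.27 to 17.4 ± 4.72 TPM. The 4 myeloid genes, 2 of them at 1 TPM or more, summed to 147 to 183 TPM there in CTRL and 36.2 to 51.4 TPM in siIRF4, with LYZ at 0 in siIRF4. Sums of 4 T and NK cell genes were 9.74 to 11.3 TPM in KMS-12-PE CTRL and 27.1 to 30.9 TPM in siIRF4, with 1 and 2 genes at 1 TPM or more and CD3D at 0 in siIRF4. Of the myeloid genes, S100A8 went from 62.3 ± 8.35 to 19.9 ± 3.17 TPM in KMS-12-PE and was at 0 in MM1R and KMS-12-BM. S100A9 fell with it in KMS-12-PE, from 99.5 ± 11.9 to 23.95 ± 4.66 TPM, but rose in MM1R, from 24.8 ± 2.64 to 94.7 ± 3.51 TPM (log2 change 1.90), while the other 3 myeloid genes there were under 1 TPM. In KMS-12-BM the 4 epithelial genes summed to 143 to 148 TPM in CTRL and 149.7 to 157 TPM in siIRF4, nearly all of it EPCAM, at 146 ± 2.45 TPM in CTRL, with KRT5 at 0 in CTRL. Averages are also given for MM1R and KMS-12-BM alone, the lines without the stromal and keratin signal, a choice made after the data were seen.

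Most of the 38 genes were lower in siIRF4. Values after ± are the SD of 3 libraries for TPM and the SE for log2 changes. On average over the 4 lines, 30 fell and 2 rose on log2(TPM + 1) at an adjusted p under 0.05 in limma, which fits a linear model to each gene with a variance informed by all genes, where 26.5% of all genes tested fell and 33.1% rose. The median log2 change of the 38 genes was -0.26, beside 0.02 for all genes tested. The falls were modest in size, and the largest average fall was that of CHAC1, at -0.87 ± 0.067 (SE). DDIT4 and LARS were the 2 that rose. ATF5, DDIT3, TRIB3, SESN2, SLC38A2 and SLC1A4 did not pass the test on average. Over MM1R and KMS-12-BM alone, 29 members were called lower and 2 higher, beside 18.2% and 26.1% of all genes.

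The fall ran through the lines. In MM1R 28 members fell and 2 rose, beside 21.2% and 25% of all genes. In MM1S 26 fell and 3 rose, beside 21.1% and 29.1%. In KMS-12-BM, where fewer genes changed, 24 members fell and 1 rose, beside 6.09% and 11.4%, whereas KMS-12-PE had 30 falls and 3 rises, beside 22.2% and 15.9%. A total of 16 members were called lower in all 4 lines, against 1.94% of all genes, and 19 had all 3 siIRF4 libraries below all 3 CTRL libraries in all 4 lines, against 3.29%, while 1 had them all above, against 3.94%. These 4 comparisons use separate libraries but 1 shared estimate of each gene's spread. The median change of the members was -0.31 in MM1R, -0.25 in MM1S, -0.25 in KMS-12-PE and -0.20 in KMS-12-BM. In KMS-12-BM the count over all genes moved with the scaling: by median-of-ratios scaling, in which each library is scaled to its median ratio over genes, 1472 genes were lower instead of 920, and the share of calls that were higher went from 65.3% to 48.4%, with 27 members lower. Leaving out KMS-12-BM siIRF4 replicate 1 cost the most calls in that line, with 17 members lower, when 724 of all genes were lower instead of 920 and 1042 higher instead of 1730.

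**Figure D1:**
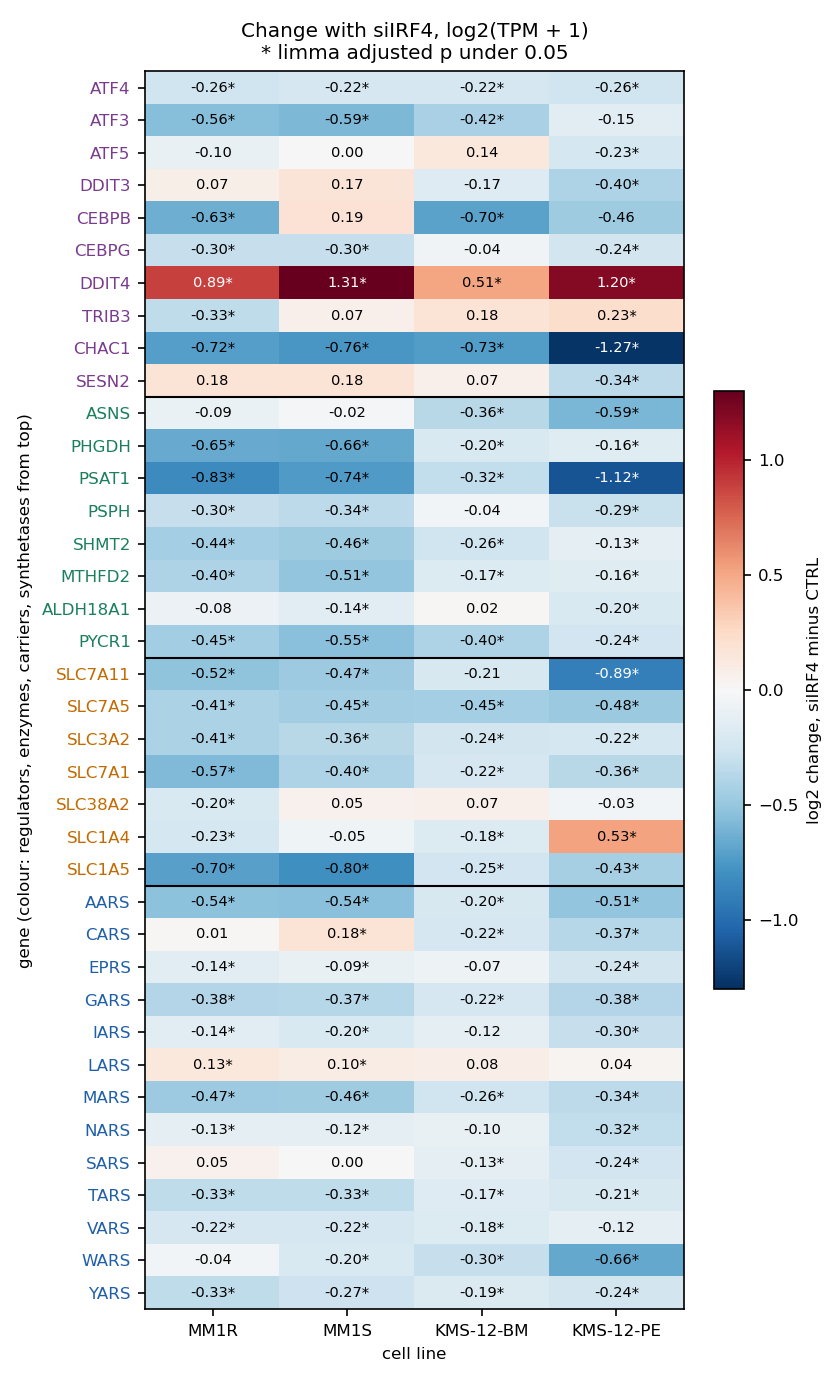
Log2 change from CTRL to siIRF4 of each of the 38 genes (rows, grouped by role and coloured by it on the axis) in the 4 lines (columns), on log2(TPM + 1), with an asterisk at a limma adjusted p under 0.05. Blue rows run through enzymes, carriers and synthetases, DDIT4 is red in all 4 lines, and SLC1A4 is red in KMS-12-PE alone.

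Sequences upstream of the members were read for the element through which ATF4 acts. RefSeq promoter windows (GRCh38.p14, 250 bases before to 50 after a transcription start, a newer build than the hg19 of the submitters' processing notes) matched 31 of the 38 genes. The letters TGATGNAA, on either strand (TTNCATCA when read on the other), stood in a window of 15 of these 31 genes (48.4%), against 4.46% of the 27305 genes in the table and 3.62% of its 35116 windows. By role these were 3 of 10 regulators, 1 of 5 enzymes, 4 of 6 carriers and 7 of 10 synthetases. The members were chosen in part as ATF4 targets, so a share above that of all genes was largely set by the choice. The 2 genes printed over 250 bases upstream of the start are ASNS, in which this element was classically studied, and CHAC1, the member with the largest average fall. The motif is in capitals, 68 bases before the start in ASNS and 209 bases before it in CHAC1.
ASNS (chr7:97872409-97872658, minus strand): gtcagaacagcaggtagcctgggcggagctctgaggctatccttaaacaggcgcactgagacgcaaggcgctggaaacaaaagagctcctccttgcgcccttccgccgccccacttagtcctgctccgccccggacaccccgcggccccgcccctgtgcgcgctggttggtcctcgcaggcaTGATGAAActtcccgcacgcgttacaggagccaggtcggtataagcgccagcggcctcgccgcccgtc
CHAC1 (chr15:40953221-40953470, plus strand): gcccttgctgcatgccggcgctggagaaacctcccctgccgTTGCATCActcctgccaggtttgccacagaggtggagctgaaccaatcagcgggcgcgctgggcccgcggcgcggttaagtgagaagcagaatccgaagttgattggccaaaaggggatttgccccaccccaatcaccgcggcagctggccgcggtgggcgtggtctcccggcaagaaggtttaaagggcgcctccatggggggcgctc

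The motif and its 10 flanking bases on each side are shown for a selection of the carriers and synthetases that hold it. Not shown are SLC3A2 and SLC7A1, which fell in all 4 lines, and IARS and NARS, which fell in 3. SLC1A5, AARS, GARS, MARS and TARS fell in all 4 lines. CARS and SLC1A4 hold the same 8 letters as AARS and MARS but did not fall throughout. The motif begins at -187 from the start in AARS, -97 in SLC1A5, -33 in GARS, -7 in SLC1A4, -4 in MARS and -2 in CARS, and at 3 in TARS.
SLC1A5 (chr19:46784894-46784921, minus strand): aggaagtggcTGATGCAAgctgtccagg
AARS (chr16:70289676-70289703, minus strand): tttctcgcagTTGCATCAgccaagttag
GARS (chr7:30594835-30594862, plus strand): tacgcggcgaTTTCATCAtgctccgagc
MARS (chr12:57488054-57488081, plus strand): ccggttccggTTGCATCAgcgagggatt
TARS (chr5:33440957-33440984, plus strand): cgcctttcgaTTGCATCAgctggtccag
CARS (chr11:3057408-3057435, minus strand): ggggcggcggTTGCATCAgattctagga
SLC1A4 (chr2:64989382-64989409, plus strand): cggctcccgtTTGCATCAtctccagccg

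Of the 15 genes with the motif 14 fell on average, with a median log2 change of -0.31, the exception being SLC1A4. Of the 16 genes whose window does not hold these letters 10 fell, with a median of -0.12. Both counts stand beside 26.5% of all genes tested that fell on average. PSAT1, PHGDH and MTHFD2, which fell, and DDIT4, which rose, are among those 16. Of the 10 regulators with a window 3 hold the motif. ATF5, DDIT3, TRIB3 and SESN2, not called on average, are also among the 16. Role and motif were therefore not separated in these medians, and the 7 genes with no window are in neither. The E-box CACGTG, the site read by MYC and other helix-loop-helix factors, stood in windows of 5 of the 31 members with a window. They were ATF4, ALDH18A1, SLC7A5, SLC1A5 and IARS, and the share over all genes was 8.77%. These matches are a description of letters in a window, not of binding.

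Of the 10 regulators 6, 4, 4 and 6 fell in MM1R, MM1S, KMS-12-BM and KMS-12-PE, beside 21.2%, 21.1%, 6.09% and 22.2% of all genes. Among them ATF4 mRNA fell by a small amount in every line. MM1R libraries held 454, 496 and 475 TPM in CTRL and 375, 396 and 421 TPM in siIRF4. MM1S libraries held 367, 368 and 359.6 TPM in CTRL and 313, 311 and 316 TPM in siIRF4. No siIRF4 library reached the lowest CTRL library of its line. KMS-12-BM had 443, 426 and 447 TPM in CTRL and 359, 386 and 388 TPM in siIRF4, and KMS-12-PE had 311, 324 and 319 TPM in CTRL and 261, 274 and 260.0 TPM in siIRF4. The log2 changes lay between -0.26 and -0.22, with -0.24 ± 0.02 (SE, adjusted p = 1.6e-09) on average, which is a loss of 16.3% of the mean in MM1R and 14.1% in MM1S. The change of ATF4 did not pass the test in any of the 3 differences between lines, for example 0.00 ± 0.04 (SE, adjusted p = 0.98) for the MM1 lines minus the KMS-12 lines.

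DDIT4 (REDD1), an inhibitor of mTORC1 signalling that many stresses induce, went the other way and rose in all 4 lines. Its libraries in MM1R gave 22.4, 22.2 and 22.3 TPM in CTRL and 42.7, 37.6 and 46.3 TPM in siIRF4, and those in MM1S gave 16.9, 16.4 and 16.5 TPM in CTRL and 43.6, 41.6 and 42.9 TPM in siIRF4. In KMS-12-BM the values were 45.8, 44.5 and 52.1 TPM in CTRL and 77.3, 68.3 and 59.5 TPM in siIRF4, and in KMS-12-PE 41.4, 38.7 and 34.6 TPM in CTRL and 92.9, 87.3 and 85.6 TPM in siIRF4. Each siIRF4 library lay above each CTRL library of its line. The log2 rise was 0.89 ± 0.081 in MM1R, 1.31 ± 0.081 in MM1S, 1.20 ± 0.081 in KMS-12-PE and 0.51 ± 0.081 in KMS-12-BM, and 0.98 ± 0.041 (SE, adjusted p = 4.2e-14) on average. It was the 1 member called higher in every line, against 2.39% of all genes.

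CHAC1, which degrades glutathione and is among the most responsive ATF4 targets, fell in all 4 lines from a low level. Libraries of MM1R held 2.65, 3.82 and 3.02 TPM in CTRL and 1.33, 1.59 and 1.63 TPM in siIRF4. Those of MM1S held 3.52, 3.90 and 3.30 TPM in CTRL and 1.82, 1.36 and 1.95 TPM in siIRF4. Both KMS-12 lines ran at a higher level, with 6.64, 5.99 and 7.03 TPM in CTRL and 3.29, 3.503 and 3.86 TPM in siIRF4 in KMS-12-BM. KMS-12-PE had the widest step, with 7.89, 6.84 and 5.01 TPM in CTRL and 2.25, 1.62 and 2.51 TPM in siIRF4. The log2 change was -1.27 ± 0.13, -0.73 ± 0.13, -0.72 ± 0.13 and -0.76 ± 0.13 in KMS-12-PE, KMS-12-BM, MM1R and MM1S, on as few as 19 reads in the lowest library and at most 119 reads in any. The stromal, keratin and S100A8 levels given above fell together with CHAC1 in KMS-12-PE, and their part in its change was not tested. The fall was also called in MM1R and KMS-12-BM. There the stromal genes, KRT5 and S100A8 were at or near 0, but S100A9 (MM1R) and EPCAM (KMS-12-BM) were not. The 4 erythroid genes listed summed to 23.9 to 30.1 TPM in MM1R CTRL and 21.2 to 26.3 TPM in KMS-12-BM CTRL. The part of these markers in the CHAC1 change of the 2 lines was not tested either.

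The other regulators split. ATF3, a stress-induced factor of the same family, fell in MM1R (-0.56 ± 0.093), MM1S (-0.59 ± 0.093) and KMS-12-BM (-0.42 ± 0.093), and its change in KMS-12-PE was -0.15 ± 0.093 (SE, adjusted p = 0.23). CEBPG, a C/EBP partner of ATF4, fell in MM1R, MM1S and KMS-12-PE with log2 changes of -0.30, -0.30 and -0.24, and had -0.04 ± 0.048 (SE, adjusted p = 0.63) in KMS-12-BM. CEBPB, the other C/EBP factor, varied between replicates. In MM1R its libraries gave 16.0, 15.1 and 13.1 TPM in CTRL and 13.2, 7.48 and 7.58 TPM in siIRF4, so that 1 siIRF4 library overlapped CTRL. The calls of CEBPB in MM1R (-0.63) and KMS-12-BM (-0.70) were each lost in fits that left out 1 library: adjusted p = 0.057 without MM1R siIRF4 replicate 2, 0.054 without replicate 3, 0.066 and 0.062 without KMS-12-BM CTRL replicates 1 and 2, and 0.086 without KMS-12-BM siIRF4 replicate 1.

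The remaining stress-linked members did not follow 1 direction. DDIT3 (CHOP), a pro-apoptotic factor, fell in KMS-12-PE, from 38.6 ± 0.61 to 28.9 ± 1.69 TPM, a log2 change of -0.40 ± 0.09 (SE, adjusted p = 0.0012), and was at 0.07, 0.17 and -0.17 in MM1R, MM1S and KMS-12-BM without passing the test. TRIB3, a pseudokinase that restrains ATF4 and AKT, fell in MM1R and rose in KMS-12-PE. MM1R libraries gave 38.2, 37.3 and 39.6 TPM in CTRL and 31.5, 27.5 and 32.1 TPM in siIRF4 for TRIB3, and MM1S libraries, which overlap, gave 20.3, 22.4 and 20.9 TPM in CTRL and 24.99, 20.4 and 21.5 TPM in siIRF4. KMS-12-BM had 62.4, 59.7 and 59.8 TPM in CTRL and 71.8, 67.8 and 66.9 TPM in siIRF4 and KMS-12-PE had 52.0, 55.3 and 48.6 TPM in CTRL and 61.2, 60.5 and 61.3 TPM in siIRF4, with no overlap in either line, and its log2 change was 0.18 ± 0.065 (SE, adjusted p = 0.059) and 0.23 ± 0.065 (SE, adjusted p = 0.0077). SESN2, a leucine sensor upstream of mTORC1, and ATF5, another factor translated like ATF4, were called lower in KMS-12-PE alone, at -0.34 and -0.23. Without KMS-12-PE the average change of SESN2 was 0.14 (adjusted p = 0.015) instead of 0.02. That of DDIT3, -0.08, was called at -0.11 without KMS-12-BM CTRL replicate 3 (adjusted p = 0.034), KMS-12-BM siIRF4 replicate 3 (0.041) or MM1S siIRF4 replicate 3 (0.039). The ATF5 call was lost without KMS-12-PE CTRL replicate 1 or 2 or siIRF4 replicate 1 or 3 (adjusted p = 0.079, 0.1, 0.074 and 0.088).

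All 8 synthesis enzymes fell on average, with a median log2 change of -0.32, and 6, 7, 6 and 8 of them fell in MM1R, MM1S, KMS-12-BM and KMS-12-PE. PSAT1, the aminotransferase of the serine pathway, fell most. Its MM1R libraries held 58.3, 56.3 and 56.9 TPM in CTRL and 28.0, 33.9 and 33.8 TPM in siIRF4, and its MM1S libraries held 62.1, 60.4 and 57.7 TPM in CTRL and 38.6, 34.5 and 33.9 TPM in siIRF4. KMS-12-BM had the highest levels, at 167, 167 and 168 TPM in CTRL and 123, 131 and 149 TPM in siIRF4. KMS-12-PE, established from the same patient as KMS-12-BM, had very low levels, at 4.89, 5.65 and 4.73 TPM in CTRL and 1.61, 1.72 and 2.09 TPM in siIRF4. No groups overlapped in any line. The log2 change of PSAT1 was -0.83 ± 0.079 in MM1R, -0.74 ± 0.079 in MM1S, -1.12 ± 0.079 in KMS-12-PE and -0.32 ± 0.079 in KMS-12-BM, with 31 reads in the lowest KMS-12-PE library. Without KMS-12-BM siIRF4 replicate 1 the KMS-12-BM value was -0.26 (adjusted p = 0.057). Stromal, keratin, S100A8 and S100A9 markers fell alongside PSAT1 in KMS-12-PE. CD3E and NKG7, the 2 of 4 T and NK cell markers that were tested, rose there, while CD3D was at 0 in siIRF4. The part of these markers in the PSAT1 change was not tested.

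PHGDH, the first enzyme of serine synthesis, SHMT2, which makes glycine and a folate-bound one-carbon unit from serine in mitochondria, and MTHFD2, the next mitochondrial folate enzyme, fell in all 4 lines. MTHFD2 went from 225 ± 3.87 to 169.6 ± 10.3 TPM in MM1R and 279 ± 7.67 to 195 ± 7.21 TPM in MM1S, losses of 24.5% and 30.1%, and lost 10.5% and 11.4% in KMS-12-PE and KMS-12-BM. SHMT2 stood at 204, 198 and 201 TPM in CTRL and 143, 149 and 152 TPM in siIRF4 in MM1R and at 191, 190.3 and 196 TPM in CTRL and 146, 137 and 136 TPM in siIRF4 in MM1S. In KMS-12-BM it stood at 360.3, 357 and 356 TPM in CTRL and 284, 303 and 313 TPM in siIRF4, and in KMS-12-PE at 258, 275 and 247 TPM in CTRL and 239.6, 237 and 234 TPM in siIRF4. The groups did not overlap in any line, and on the log2 scale the steps were larger in the MM1 lines. PHGDH went from 41.7 ± 2.10 to 26.2 ± 1.89 TPM in MM1R and from 53.0 ± 2.22 to 33.1 ± 2.20 TPM in MM1S, losses of 37.3% and 37.6%. Its level in the KMS-12 lines went from 193 ± 8.43 to 168 ± 12.6 TPM in KMS-12-BM and 75.5 ± 2.16 to 67.6 ± 3.64 TPM in KMS-12-PE, losses of 13.0% and 10.6%. The PHGDH calls in the KMS-12 lines were near the threshold: adjusted p was 0.18 without KMS-12-BM siIRF4 replicate 1, 0.093 and 0.098 without KMS-12-BM CTRL replicates 1 and 2, and 0.097 by median-of-ratios scaling in KMS-12-PE. The call in KMS-12-PE was also lost without any 1 of 13 libraries, with the highest adjusted p, 0.16, without KMS-12-PE siIRF4 replicate 1. SHMT2 in KMS-12-PE was at -0.09 (adjusted p = 0.093) without CTRL replicate 2 of that line.

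PYCR1, which makes proline in mitochondria, fell in each line. Libraries in MM1R read 48.0, 51.6 and 49.6 TPM in CTRL and 32.8, 37.0 and 38.5 TPM in siIRF4, and in MM1S 43.4, 48.2 and 44.0 TPM in CTRL and 31.1, 29.7 and 31.1 TPM in siIRF4. KMS-12-BM read 204, 201 and 196 TPM in CTRL and 147, 153 and 155 TPM in siIRF4, and KMS-12-PE 388, 395 and 365 TPM in CTRL and 313, 327 and 329 TPM in siIRF4. The siIRF4 values lay below the CTRL values everywhere, at levels that differed several-fold between the line pairs. ALDH18A1, the enzyme before it, changed less, by -0.10 ± 0.021 (SE, adjusted p = 3.2e-04) on average, and by -0.03 (adjusted p = 0.43) over MM1R and KMS-12-BM alone. PSPH, the phosphatase that completes serine synthesis, fell in MM1R, MM1S and KMS-12-PE, with log2 changes of -0.30, -0.34 and -0.29.

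ASNS, the asparagine synthetase, fell in the KMS-12 lines and did not pass the test in the MM1 lines. It stood at 72.4, 73.0 and 74.4 TPM in CTRL and 70.2, 69.5 and 67.1 TPM in siIRF4 in MM1R and at 63.1, 66.2 and 63.5 TPM in CTRL and 65.3, 63.3 and 61.7 TPM in siIRF4 in MM1S. In KMS-12-BM the libraries held 57.1, 61.3 and 58.5 TPM in CTRL and 42.7, 48.4 and 46.0 TPM in siIRF4, and in KMS-12-PE 94.5, 92.6 and 94.2 TPM in CTRL and 61.3, 59.6 and 64.5 TPM in siIRF4. CTRL and siIRF4 overlapped in MM1S and were apart in the other 3 lines. The log2 change was -0.09 ± 0.042 (SE, adjusted p = 0.098) in MM1R and -0.02 ± 0.042 (SE, adjusted p = 0.77) in MM1S, and -0.59 ± 0.042 (SE, adjusted p = 4.0e-10) in KMS-12-PE and -0.36 ± 0.042 (SE, adjusted p = 2.6e-06) in KMS-12-BM. Its average change of -0.27 was -0.16 without KMS-12-PE.

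Of 7 amino acid carriers 5 fell on average, with a median log2 change of -0.39, and 7 fell in MM1R and 5 in each of the other lines. The shares of all genes that fell were 26.5% on average and 21.2%, 21.1%, 6.09% and 22.2% in MM1R, MM1S, KMS-12-BM and KMS-12-PE. SLC1A5 (ASCT2), the main glutamine carrier of many tumour cells, held 279.9, 296 and 306 TPM in CTRL and 164, 188 and 189 TPM in siIRF4 in MM1R. In MM1S it held 253, 254 and 257 TPM in CTRL and 157, 137 and 145 TPM in siIRF4. KMS-12-BM had 361, 355 and 354 TPM in CTRL and 282, 301 and 317 TPM in siIRF4 and KMS-12-PE 224, 225 and 196 TPM in CTRL and 151, 163 and 162 TPM in siIRF4. In no line did the groups overlap, and the loss of the mean was 38.6% and 42.5% in MM1R and MM1S against 26.2% and 15.9% in KMS-12-PE and KMS-12-BM. SLC7A5 (LAT1), which imports leucine and other large neutral amino acids, fell in all 4 lines. Its values were 112, 109.8 and 118 TPM in CTRL and 80.5, 86.3 and 87.4 TPM in siIRF4 in MM1R and 97.0, 99.95 and 105 TPM in CTRL and 80.1, 69.5 and 71.4 TPM in siIRF4 in MM1S. They were 221, 224 and 189 TPM in CTRL and 145, 152 and 154 TPM in siIRF4 in KMS-12-PE and 177, 176 and 164 TPM in CTRL and 118, 127 and 135 TPM in siIRF4 in KMS-12-BM. The log2 change of SLC7A5 lay between -0.48 and -0.41, and its partner chain SLC3A2 (CD98) had changes of -0.41, -0.36, -0.22 and -0.24 in MM1R, MM1S, KMS-12-PE and KMS-12-BM, all called.

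SLC7A11 (xCT), which exchanges glutamate for cystine and feeds glutathione synthesis, was scarce throughout. MM1R had 2.34, 2.26 and 2.33 TPM in CTRL and 1.07, 1.43 and 1.43 TPM in siIRF4, and MM1S had 1.95, 2.28 and 1.75 TPM in CTRL and 1.118, 1.23 and 1.117 TPM in siIRF4. KMS-12-BM had 0.613, 0.594 and 0.707 TPM in CTRL and 0.34, 0.456 and 0.463 TPM in siIRF4, and KMS-12-PE had 4.81, 4.14 and 4.10 TPM in CTRL and 1.76, 1.93 and 1.97 TPM in siIRF4. Within each line every siIRF4 library was below every CTRL library. On log2(TPM + 1) the average change was -0.52 ± 0.04 (SE, adjusted p = 4.7e-10), and with a pseudocount of 0.1 it was -0.80, since the added 1 TPM shrinks changes of scarce genes. The change in KMS-12-BM, -0.21 ± 0.081 (SE, adjusted p = 0.083), passed the test with that smaller pseudocount (adjusted p = 0.021). In KMS-12-PE the stromal, keratin and S100A8 markers fell with SLC7A11, and their part in its change was not tested. SLC7A1 (CAT1), the carrier of arginine and lysine, fell in all 4 lines, with log2 changes of -0.57 in MM1R, -0.40 in MM1S, -0.36 in KMS-12-PE and -0.22 in KMS-12-BM. Its KMS-12-BM call was lost when any 1 of the 6 libraries of that line was left out (adjusted p from 0.051 to 0.075).

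The 2 carriers that did not pass the test on average differed between lines. SLC1A4 (ASCT1), a carrier of serine, alanine and cysteine, held 335, 319.5 and 341 TPM in CTRL and 283, 282 and 284 TPM in siIRF4 in MM1R and 330.1, 313 and 333 TPM in CTRL and 332, 304 and 307 TPM in siIRF4 in MM1S. In KMS-12-BM it held 55.5, 57.8 and 52.4 TPM in CTRL and 47.7, 47.7 and 50.5 TPM in siIRF4. KMS-12-PE was the line in which it rose, with 74.5, 76.5 and 67.6 TPM in CTRL and 109.9, 101 and 106 TPM in siIRF4 and no overlap. The log2 change was -0.23 ± 0.048 (SE, adjusted p = 5.1e-04) in MM1R, -0.05 ± 0.048 (SE, adjusted p = 0.41) in MM1S, 0.53 ± 0.048 (SE, adjusted p = 2.2e-08) in KMS-12-PE and -0.18 ± 0.048 (SE, adjusted p = 0.011) in KMS-12-BM. The average therefore turned on KMS-12-PE: it was 0.02 over 4 lines and -0.15 (adjusted p = 6.6e-05) without that line. The KMS-12-BM call was lost without CTRL replicate 2 (adjusted p = 0.07) or siIRF4 replicate 1 (0.051). SLC38A2 (SNAT2), a carrier of small neutral amino acids, fell in MM1R alone (-0.20 ± 0.068, adjusted p = 0.022), a call lost without CTRL replicate 1 (0.13) or siIRF4 replicate 3 (0.084) of that line.

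Among the 13 tRNA synthetases 12 fell on average and LARS rose, with a median log2 change of -0.19. In MM1R 9 fell and 1 rose, in MM1S 10 fell and 2 rose, in KMS-12-BM 9 fell and in KMS-12-PE 11 fell. Of all genes 26.5% fell on average, and 21.2%, 21.1%, 6.09% and 22.2% fell in these lines. The shares that rose were 33.1% on average and 25% and 29.1% in MM1R and MM1S. The largest falls were those of AARS (alanine), MARS (methionine) and GARS (glycine). AARS libraries read 209.5, 192 and 211 TPM in CTRL and 135, 142 and 144 TPM in siIRF4 in MM1R and 153, 149.8 and 159 TPM in CTRL and 107, 103 and 107 TPM in siIRF4 in MM1S. They read 135, 134 and 120.1 TPM in CTRL and 91.4, 90.5 and 89.99 TPM in siIRF4 in KMS-12-PE and 169, 165 and 157 TPM in CTRL and 137, 144 and 145 TPM in siIRF4 in KMS-12-BM. All siIRF4 libraries of AARS were under the CTRL libraries of their line, and the step was smallest in KMS-12-BM. MARS read 181, 171 and 184 TPM in CTRL and 124, 128 and 133 TPM in siIRF4 in MM1R and 141, 144 and 148 TPM in CTRL and 109, 99.3 and 105 TPM in siIRF4 in MM1S. In KMS-12-BM it read 199, 189 and 185 TPM in CTRL and 147, 166 and 167 TPM in siIRF4 and in KMS-12-PE 176, 178 and 162 TPM in CTRL and 135, 138 and 133 TPM in siIRF4. Again no groups overlapped. GARS read 138, 134 and 145 TPM in CTRL and 103, 113 and 104 TPM in siIRF4 in MM1R and 153, 150.2 and 158 TPM in CTRL and 119, 120.3 and 116 TPM in siIRF4 in MM1S. Its KMS-12-BM values were 209, 214 and 208 TPM in CTRL and 170.3, 177 and 195 TPM in siIRF4 and its KMS-12-PE values 478, 491 and 464 TPM in CTRL and 366, 365 and 368 TPM in siIRF4. The average log2 change was -0.45 ± 0.023 for AARS, -0.38 ± 0.025 for MARS and -0.34 ± 0.022 for GARS (SE).

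TARS (threonine) and YARS (tyrosine) also fell in all 4 lines, with log2 changes between -0.33 and -0.17 for TARS and between -0.33 and -0.19 for YARS. IARS, NARS and EPRS, for isoleucine, asparagine and, in EPRS, glutamate and proline, fell in MM1R, MM1S and KMS-12-PE and did not pass the test in KMS-12-BM, where their changes were -0.12, -0.10 and -0.07 (adjusted p = 0.055, 0.051 and 0.23). The EPRS fall in MM1S, -0.09 (adjusted p = 0.045), lay at the threshold and was lost without any 1 of 12 libraries, with the highest adjusted p, 0.25, without MM1S CTRL replicate 1. The IARS call in MM1R was lost without MM1R CTRL replicate 3 (adjusted p = 0.055). VARS (valine) fell in MM1R, MM1S and KMS-12-BM, with -0.22, -0.22 and -0.18. The VARS call in KMS-12-BM was lost without any 1 library of that line except CTRL replicate 3 (adjusted p from 0.073 to 0.15), and in KMS-12-PE VARS was called, at -0.20 (0.0079), without CTRL replicate 3. LARS (leucine) rose by 0.13 ± 0.038 (SE, adjusted p = 0.0061) in MM1R and 0.10 ± 0.038 (SE, adjusted p = 0.038) in MM1S. By median-of-ratios scaling the MM1S value was 0.06 (adjusted p = 0.18), and it was not called without MM1S CTRL replicate 2 or 3 or siIRF4 replicate 1 or 2 (0.053, 0.17, 0.13 and 0.063). Likewise, without MM1R siIRF4 replicate 1 the MM1R value was 0.10 (adjusted p = 0.053).

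CARS (cysteine), WARS (tryptophan) and SARS (serine) fell in both KMS-12 lines, and of these WARS alone fell in an MM1 line, MM1S. CARS read 75.7, 73.8 and 76.4 TPM in CTRL and 77.3, 75.5 and 75.1 TPM in siIRF4 in MM1R. In MM1S, where it rose, CARS read 51.3, 54.5 and 53.1 TPM in CTRL and 62.4, 61.0 and 57.4 TPM in siIRF4. KMS-12-BM gave 44.6, 40.6 and 41.2 TPM in CTRL and 32.7, 37.6 and 37.9 TPM in siIRF4 and KMS-12-PE 45.9, 46.4 and 44.4 TPM in CTRL and 35.8, 34.2 and 35.5 TPM in siIRF4. The groups of CARS overlapped in MM1R alone. WARS, which is also an interferon-induced gene, read 42.6, 40.2 and 42.5 TPM in CTRL and 39.2, 41.0 and 41.7 TPM in siIRF4 in MM1R and 39.1, 38.7 and 37.6 TPM in CTRL and 33.1, 33.4 and 33.5 TPM in siIRF4 in MM1S. Its KMS-12-BM libraries read 125, 127 and 118 TPM in CTRL and 91.5, 103 and 107 TPM in siIRF4 and its KMS-12-PE libraries 179, 181 and 171 TPM in CTRL and 109, 111 and 114 TPM in siIRF4, so that the CTRL level was higher and the drop wider in the KMS-12 lines. The interferon-linked factor IRF1 rose in the KMS-12 lines (log2 change 0.89 in KMS-12-BM, 0.77 in KMS-12-PE) and also in the MM1 lines (0.53 and 0.54). The average changes of CARS and SARS, -0.10 and -0.08, were -0.01 and -0.03 (adjusted p = 0.8 and 0.29) without KMS-12-PE, and that of WARS, -0.30, was -0.18. The SARS call in KMS-12-BM was lost without siIRF4 replicate 1 (0.07).

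**Figure D2:**
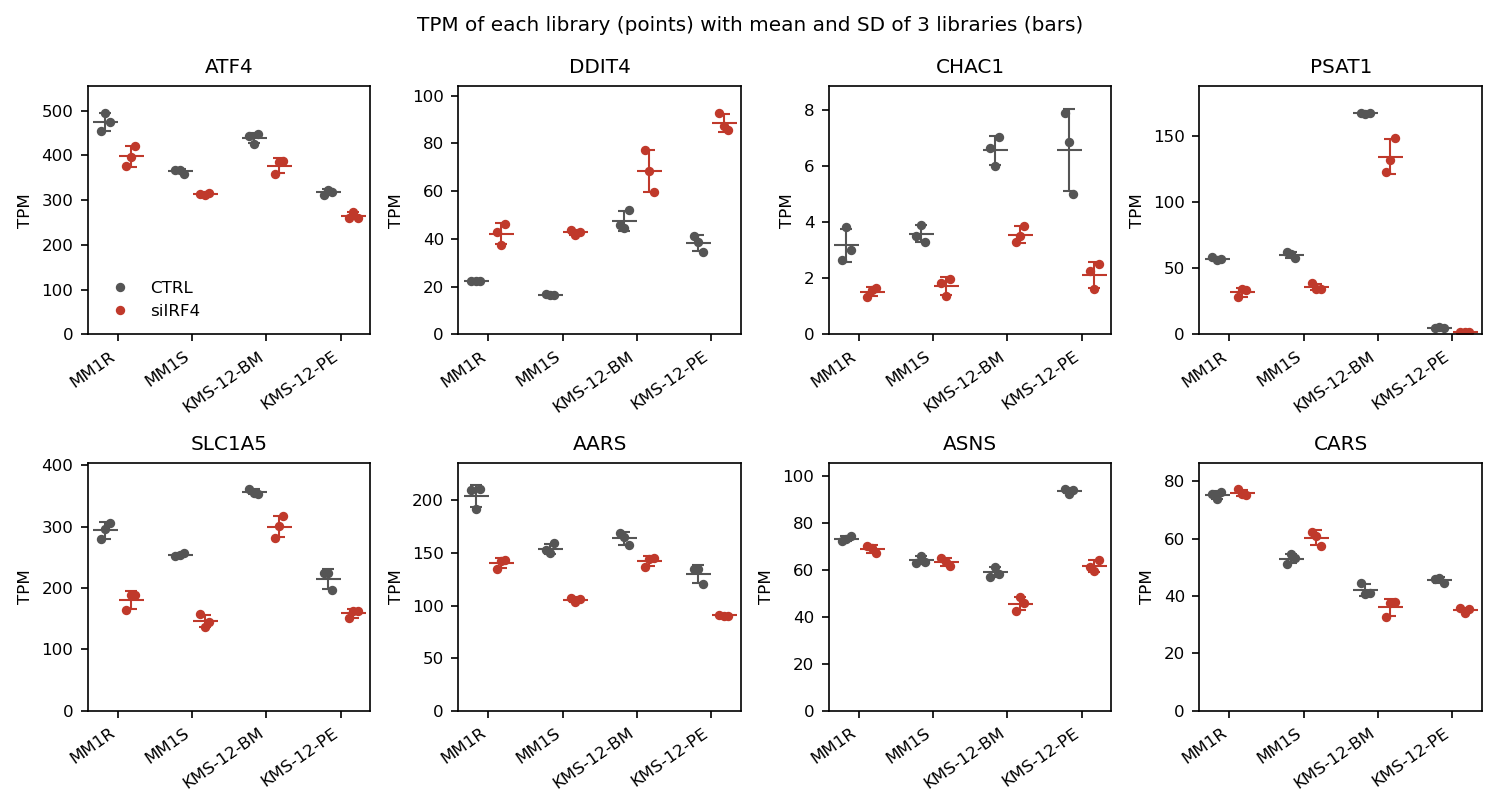
TPM of every library (points; CTRL grey, siIRF4 red) with the mean and SD of 3 libraries (bars) in the 4 lines for 8 genes, each panel on its own linear axis from 0. ATF4, CHAC1, PSAT1, SLC1A5 and AARS step down in each line, DDIT4 steps up, and ASNS and CARS step down only in the KMS-12 lines among the called changes.

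The responses of the line pairs were then compared directly, as the mean change in MM1R and MM1S minus that in the 2 KMS-12 lines. Of the 38 members, 14 fell more or rose less in the MM1 lines and 7 in the KMS-12 lines, beside 20% and 25% of all genes tested. The second count is a smaller share than among all genes. The 14 included PHGDH and the folate enzymes: the difference was -0.48 ± 0.062 (SE, adjusted p = 2.0e-06) for PHGDH, -0.41 ± 0.061 (SE, adjusted p = 1.4e-05) for SLC1A5, -0.29 ± 0.041 (SE, adjusted p = 5.1e-06) for MTHFD2 and -0.26 ± 0.039 (SE, adjusted p = 1.7e-05) for SHMT2. The 7 were ASNS (0.43 ± 0.042), DDIT3 (0.41 ± 0.09), CARS (0.39 ± 0.049), WARS (0.36 ± 0.046), SESN2 (0.31 ± 0.081), DDIT4 (0.25 ± 0.081) and SARS (0.21 ± 0.034, SE). DDIT4 belongs to the latter because it rose more in the mean of the MM1 lines. Its rise for KMS-12-PE, 1.20, lay between those of MM1R (0.89) and MM1S (1.31), and KMS-12-BM had the smallest, 0.51. SESN2 and SLC1A4, the latter 1 of the 14, changed with opposite sign in the 2 KMS-12 lines. Mean TPM of SESN2 changed by 5.72% for KMS-12-BM, -22.0% for KMS-12-PE, 14.3% for MM1R and 14.5% for MM1S. For SLC1A4 these values were -12.0%, 44.6%, -14.7% and -3.46%. PHGDH and ASNS had the larger step in different pairs of lines, while PSAT1 showed no called difference (-0.06 ± 0.079, adjusted p = 0.55). The ATF3 difference of -0.29 was -0.12 (adjusted p = 0.54) with a pseudocount of 0.1, at a level in the KMS-12 lines close to 1 TPM. MYC, known to share several of these targets with ATF4, rose in MM1R and MM1S (log2 change 0.46 and 0.23) and fell in KMS-12-PE and KMS-12-BM (-0.29 and -0.47), and its part in these differences was not tested.

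**Figure D3:**
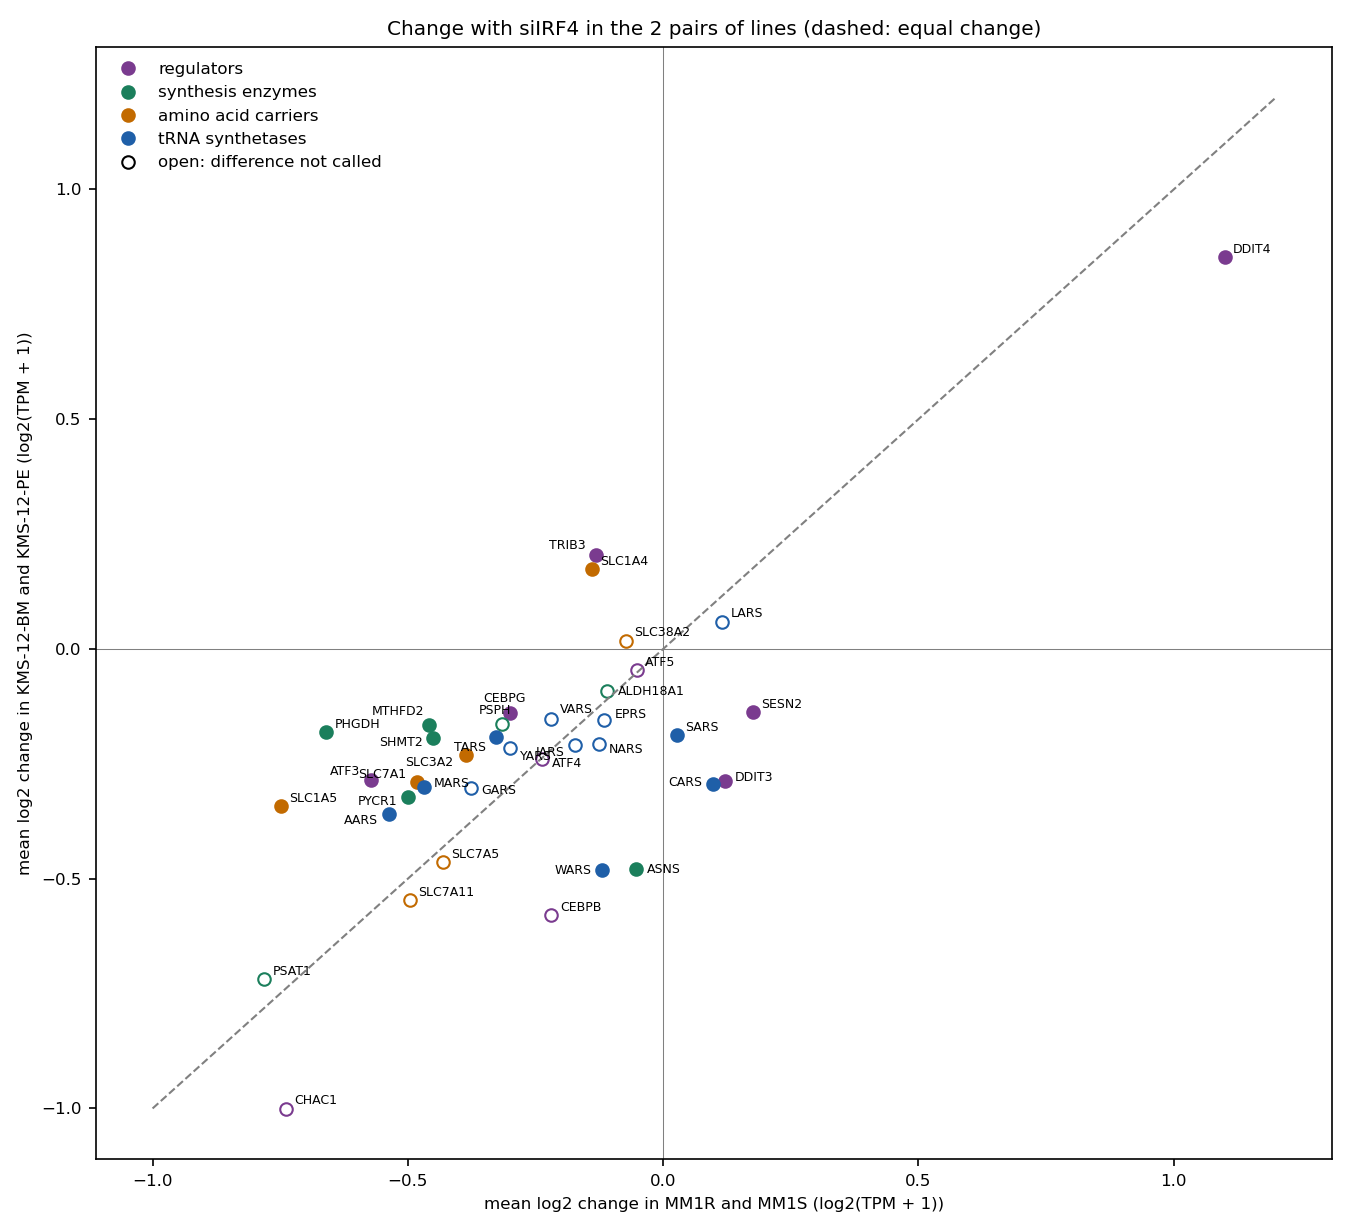
Mean log2 change in MM1R and MM1S (horizontal) against that in the KMS-12 lines (vertical) of the 38 genes on log2(TPM + 1), coloured by role, filled where the difference passed the limma test. Points above the dashed line of equal change, such as PHGDH and SLC1A5, fell more in the MM1 lines, and points below it, such as ASNS, CARS and WARS, fell more in the KMS-12 lines.

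MM1R and MM1S, sister lines that differ in response to dexamethasone, differed in 1 member. The difference passed the test for TRIB3, at -0.40 ± 0.091 (SE, adjusted p = 0.022), beside 1.33% of all genes called lower and 1.14% called higher. This call was lost without MM1R CTRL replicate 3, MM1R siIRF4 replicate 2, MM1S CTRL replicate 1 or MM1S siIRF4 replicate 1 (adjusted p = 0.058, 0.069, 0.054 and 0.054). The next smallest p-values were those of DDIT4, at -0.43 ± 0.11 (SE, adjusted p = 0.053), which passed without any 1 of 6 libraries, and CEBPB, at -0.82 ± 0.27 (SE, adjusted p = 0.11). CEBPB in MM1S was at 19.0, 17.8 and 21.6 TPM in CTRL and 22.2, 23.4 and 21.4 TPM in siIRF4. For AARS, GARS, MARS, TARS and PHGDH the MM1R change minus the MM1S change was within the SE of 0, for example 0.00 ± 0.064 for AARS and 0.01 ± 0.088 for PHGDH. IRF4 itself differed by 0.62 ± 0.094 (SE, adjusted p = 9.1e-04), having fallen less in MM1R.

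KMS-12-BM and KMS-12-PE differed more. For 13 members the change was higher in KMS-12-BM, as a smaller fall or a rise, and for 2 it was lower, beside 15.9% and 7.11% of all genes. The largest differences were those of PSAT1 (0.80 ± 0.11, adjusted p = 2.5e-05), SLC1A4 (-0.71 ± 0.068, adjusted p = 1.9e-07), DDIT4 (-0.68 ± 0.11, adjusted p = 2.2e-04) and SLC7A11 (0.68 ± 0.11, adjusted p = 2.2e-04). WARS (0.36 ± 0.065) and AARS (0.31 ± 0.064) also fell less in KMS-12-BM. These counts turned on the scaling: by median-of-ratios scaling, as by voom, limma's fit to read numbers, 7 members were higher and 4 lower, and the share of all calls that were higher went from 69.1% to 52.4% and 55.9%. The SLC7A11 difference was not called by voom (adjusted p = 0.13). CHAC1 differed by 0.54 ± 0.19 (SE, adjusted p = 0.043), a call lost without any 1 of 7 libraries of these lines, of which KMS-12-PE siIRF4 replicate 2 gave the highest adjusted p, 0.13. The CTRL level of PSAT1 was low in KMS-12-PE (5.09 TPM) but not in KMS-12-BM (167 TPM). SLC7A11 was scarcer in KMS-12-BM than in KMS-12-PE (0.638 against 4.35 TPM in CTRL), and CHAC1 was low in both (6.55 and 6.58 TPM). In KMS-12-PE stromal, keratin, S100A8 and S100A9 markers fell, and the 2 T and NK cell markers tested, CD3E and NKG7, rose. The part of those markers was not tested.

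Levels in CTRL cells differed between the lines for most members. Of 38 members 22 were lower and 12 higher in the MM1 than in the KMS-12 lines, beside 44.8% and 40.4% of all genes, so the share of members that differed is near that of all genes. ATF4 itself had CTRL means of 318 ± 6.21, 439 ± 11.6, 475 ± 20.8 and 365 ± 4.59 TPM in KMS-12-PE, KMS-12-BM, MM1R and MM1S. PYCR1 was several-fold lower in the MM1 lines, at 48.0, 51.6 and 49.6 TPM in MM1R and 43.4, 48.2 and 44.0 TPM in MM1S against 388, 395 and 365 TPM in KMS-12-PE and 204, 201 and 196 TPM in KMS-12-BM, a log2 difference of -2.52 ± 0.036 (SE, adjusted p = 3.2e-24). SLC1A4 ran the other way, with CTRL means of 332 ± 11.1 and 325 ± 10.6 TPM in the MM1 lines against 72.9 ± 4.68 and 55.3 ± 2.70 TPM in KMS-12-PE and KMS-12-BM. ATF3 was at 16.0 ± 2.005 TPM in MM1R and 17.1 ± 0.18 TPM in MM1S and at 1.51 ± 0.24 and 1.28 ± 0.1 TPM in the KMS-12 lines.

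The widest difference between sister lines was that of PSAT1. KMS-12-BM CTRL libraries held 167, 167 and 168 TPM and KMS-12-PE CTRL libraries 4.89, 5.65 and 4.73 TPM, a log2 difference of 4.79 ± 0.079 (SE). PHGDH, the step before PSAT1, was also higher in KMS-12-BM (193 ± 8.43 against 75.5 ± 2.16 TPM), whereas PSPH, the step after it, was lower (52.4 ± 0.83 against 63.8 ± 0.97 TPM). IARS and GARS were higher in KMS-12-PE, at 532 ± 11.5 and 478 ± 13.2 TPM against 220.4 ± 7.15 and 211 ± 3.35 TPM. Over all members 15 were higher and 19 lower in KMS-12-BM than in KMS-12-PE, beside 37.3% and 40% of all genes. Between MM1R and MM1S 15 were higher and 8 lower in MM1R, beside 29.7% and 27.6%, with TRIB3 (0.83) and SLC38A2 (0.73) the furthest apart. Among the 13 synthetases the highest CTRL level was IARS in KMS-12-PE and the lowest was VARS in the same line, at 23.2 ± 2.29 TPM.

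**Figure D4:**
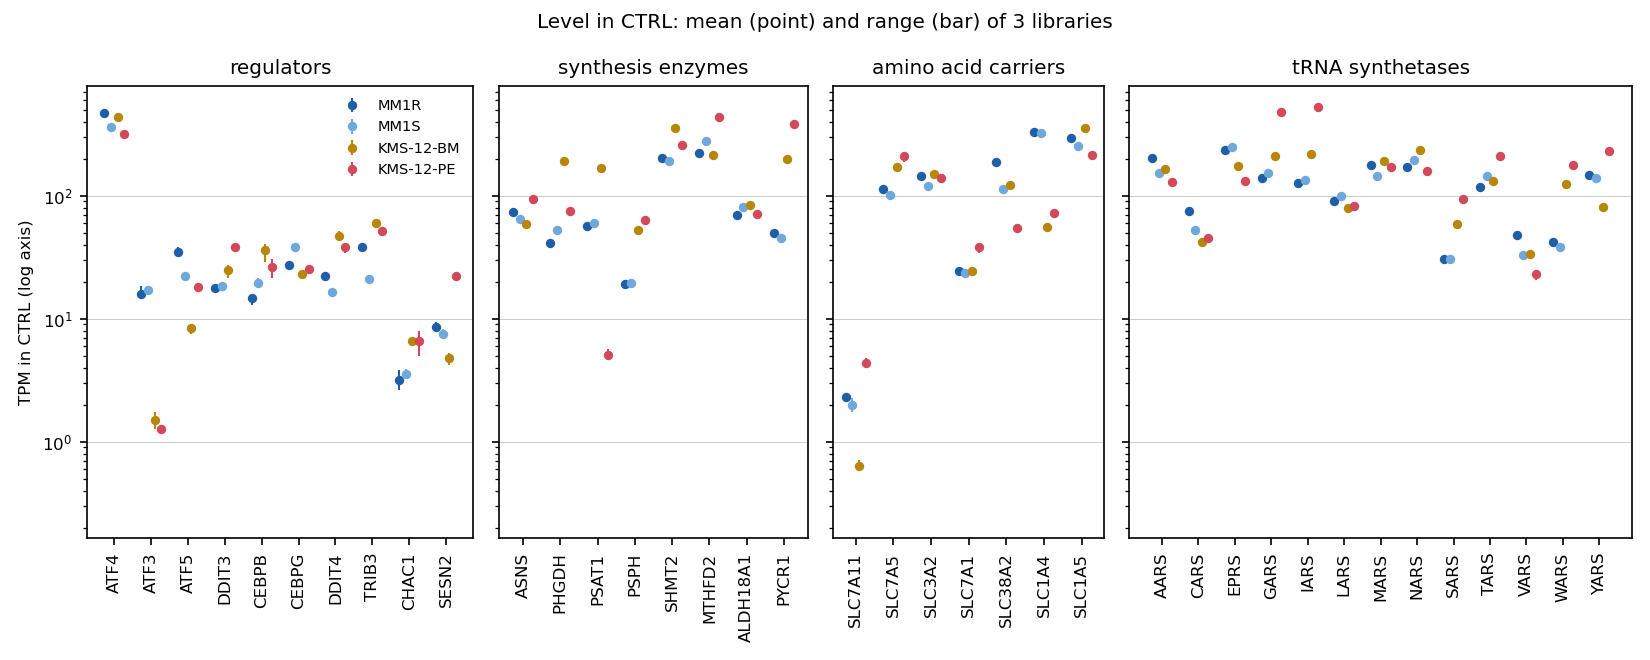
TPM in CTRL on a log axis of the 38 genes by role, as the mean (point) and range (bar) of 3 libraries of each line. The lines lie close together for ATF4, LARS and ALDH18A1 and far apart for PSAT1, ATF3, SLC1A4, SLC7A11 and PYCR1.

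Further genes of the pathway were taken from lists, and their counts stand beside 26.5% of all genes that fell on average and 33.1% that rose. Of 11 further ATF4 targets tested, of 13 listed, 9 fell and 1 rose on average, with a median log2 change of -0.24. GPT2, an alanine aminotransferase, and XPOT, the exportin of tRNA, were the falls with the smallest p-values (-0.48 ± 0.028 and -0.24 ± 0.02), and KLHL24 rose (0.76 ± 0.046). Of 20 other one-carbon and amino acid enzymes 14 fell and 2 rose (median -0.16). ALDH1L2, a mitochondrial folate dehydrogenase, went from 57.9 ± 2.25 to 30.0 ± 1.97 TPM in KMS-12-PE, where it was highest, and from 7.46 ± 0.3 to 3.73 ± 0.34 TPM in MM1R, and GLDC, of the glycine cleavage system, changed by -0.45 ± 0.031 on average. BCAT1 and MTHFD2L were the 2 that rose (0.19 and 0.15).

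Of 10 remaining cytosolic synthetase and scaffold genes 8 fell and 2 rose (median -0.11), with FARSB (-0.18 ± 0.017) and KARS (-0.16 ± 0.016) among the falls and QARS (0.14 ± 0.015) and DARS (0.08 ± 0.021) as the rises. Of 17 mitochondrial synthetases 8 fell and 2 rose (median -0.02), with AARS2 at -0.19 and SARS2 and HARS2 at 0.10 and 0.09. The share that fell among the 17 lies nearer the 26.5% of all genes, and whether the 2 groups differ was not tested.

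On average, other carriers and the upstream kinases did not share 1 direction. Of 9 further amino acid carriers tested, of 12 listed, 3 fell and 4 rose (median -0.02), shares near those of all genes. SLC43A2 (LAT4), which carries large neutral amino acids, rose from 5.62 ± 0.45 to 15.7 ± 1.503 TPM in MM1R and from 5.601 ± 0.35 to 14.9 ± 0.43 TPM in MM1S, and SLC7A8 (LAT2) rose in MM1R and MM1S (1.35 and 1.33) from under 0.5 TPM in CTRL. SLC38A5 and SLC38A1 fell on average, at -0.37 and -0.13. Of 9 genes for eIF2 kinases, their partners and the eIF2 phosphatase, 5 fell and 2 rose (median -0.16), with PPP1R15B, a phosphatase subunit, at -0.23, EIF2S1, the phosphorylated subunit of eIF2, at -0.16 and the double-stranded RNA kinase EIF2AK2 at 0.14. EIF2AK2 was called in KMS-12-BM alone of the 4 lines, where it went from 3.12 ± 0.35 to 5.403 ± 0.27 TPM. The other rise, that of IMPACT, was called in MM1R and MM1S (0.30 and 0.27), and the gene was under 0.3 TPM in both KMS-12 lines. Of the 9 eIF2 genes, 7 fell and 0 rose in KMS-12-PE, beside 22.2% and 15.9% of all genes. All 9 changes there were below 0. MM1R had 3 falls and 1 rise, MM1S 4 and 2, and KMS-12-BM 2 and 1. The shares of all genes in these lines were 21.2% and 25%, 21.1% and 29.1%, and 6.09% and 11.4%.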

How the data were processed

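Total RNA of 24 libraries, 3 for each of 8 groups, was sequenced by the submitters. The submitters' processing notes name FastQC, MultiQC, STAR, featureCounts and hg19, with no versions. The authors deposited 1 table of TPM values, 1 column per library. Its 28 rows whose symbols had become dates and its 1 row without a name were left out. Which annotation and strand setting were used is not given in the sources used here, so reads of overlapping antisense genes may be shared. Whole read numbers could be rebuilt from the steps of the low TPM values for 20484 genes (tolerance 0.02 reads), covering at least 99.96% of each library. They gave the depths and the voom alternative.

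Genes with at least 1 TPM in at least 3 libraries were tested on log2(TPM + 1) with limma 3.58.1 in R 4.3.3, in 1 fit of 8 group means over 24 libraries with a trended, robust eBayes prior. P-values were two-sided, with Benjamini-Hochberg adjustment over 15113 genes within each of 11 comparisons, and genes were called at an adjusted p under 0.05. A fold change on log2(TPM + 1) understates that of low genes. The script was tested on simulated data. The members, lists and tests were chosen with earlier results of these data known. All members could be named. Values of every library are given for ATF4, the 3 members of each role with the smallest average p and the 3 with the smallest p in each response difference, and up to 2 higher and 2 lower genes are named from each further list, of which 1 is not reported here. IRF4, IRF1 and MYC are given as context. Promoter windows came from RefSeq (GRCh38.p14), with older symbols matched through its synonyms. Each fit was repeated with 0.1 as pseudocount, without the filter, with only genes of mean 5 TPM or more, with median-of-ratios scaling, with a plain eBayes prior, with a replicate block, with each line fitted alone, by voom, and without each library in turn. Averages over fewer lines were added after the data were seen. Tables used Python 3.11.15, pandas 2.3.3 and numpy 2.4.6, and plots matplotlib 3.10.9.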

Additional observations from a re-analysis of the deposited data

Results flagged for a closer look

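Each value here is a difference between 2 responses to siIRF4 that was itself tested and passed (limma adjusted p under 0.05, over all genes tested). For the MM1 lines minus the KMS-12 lines it was -0.48 for PHGDH, -0.41 for SLC1A5, -0.34 for TRIB3, -0.31 for SLC1A4, -0.29 for ATF3, -0.29 for MTHFD2 and -0.26 for SHMT2 on log2(TPM + 1). It was -0.19 for SLC7A1, -0.18 for AARS, -0.18 for PYCR1, -0.17 for MARS, -0.16 for CEBPG, -0.16 for SLC3A2 and -0.14 for TARS. In the other direction it was 0.43 for ASNS, 0.41 for DDIT3, 0.39 for CARS, 0.36 for WARS, 0.31 for SESN2, 0.25 for DDIT4 and 0.21 for SARS.

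Between MM1R and MM1S the difference passed for TRIB3, at -0.40. For KMS-12-BM minus KMS-12-PE it was 0.80 for PSAT1, 0.68 for SLC7A11, 0.54 for CHAC1, 0.41 for SESN2, 0.37 for ATF5, 0.36 for WARS and 0.31 for AARS. It was 0.23 for ASNS, 0.22 for NARS, 0.21 for ALDH18A1, 0.19 for CEBPG, 0.18 for IARS and 0.17 for EPRS. SLC1A4 and DDIT4 had the opposite sign, at -0.71 and -0.68. The KMS-12 differences of CEBPG, CHAC1, IARS, ATF5 and EPRS were each lost in at least 3 of the fits that left out 1 library, with adjusted p up to 0.14 for CEBPG without KMS-12-BM CTRL replicate 2. ASNS missed the threshold by median-of-ratios scaling (0.051) and voom (0.052), and NARS by median-of-ratios scaling (0.068).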

How the results depend on the processing

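All 32 calls of members on average over 4 lines held in every refit named above that tested the gene, those over fewer lines aside. Of 30, 29, 25 and 33 calls in MM1R, MM1S, KMS-12-BM and KMS-12-PE, 26, 27, 17 and 30 held under all of them, as did 19 of 21 calls for MM1 minus KMS-12, 0 of 1 for MM1R minus MM1S and 7 of 15 for KMS-12-BM minus KMS-12-PE. SLC1A4 turned from 0.02 on average to -0.20 over MM1R and KMS-12-BM and to -0.15 without KMS-12-PE, since it rose in KMS-12-PE alone. With a mean of at least 5 TPM, lines fitted alone or voom, 2 members instead of 1 rose in KMS-12-BM. For MM1R minus MM1S 2 members instead of 1 were lower with a mean of at least 5 TPM or median-of-ratios scaling. For KMS-12-BM minus KMS-12-PE 4 instead of 2 were lower and 7 instead of 13 higher by median-of-ratios scaling and by voom. The cause of these shifts was not tested. IARS, NARS and TRIB3 in KMS-12-BM, CEBPB in KMS-12-PE and PSPH and YARS for MM1 minus KMS-12 lay just over the threshold and passed it in some refits. With each library left out in turn, members called higher numbered 1 to 3 in MM1R and 1 to 2 in KMS-12-BM, and members called lower 0 to 2 for MM1R minus MM1S.

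Over all genes, the lower calls in KMS-12-BM went from 920 to 1472 by median-of-ratios scaling, and the higher calls from 1730 to 1042 without KMS-12-BM siIRF4 replicate 1. For MM1R minus MM1S the lower and higher calls, 201 and 173, were 89 and 82 with a pseudocount of 0.1, and 319 lower by voom, 102 higher with lines fitted alone, and as few as 102 and 110 with a library left out.

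Same-numbered CTRL and siIRF4 libraries correlated at -0.088 to 0.086 in their deviations, and 2 of 12 CTRL libraries correlated best with the siIRF4 library of their number, so the numbers were not taken as pairs. With a replicate block 30 members were lower and 2 higher on average, and 0 instead of 1 differed between MM1R and MM1S (TRIB3, adjusted p = 0.063), where the counts over all genes were 88 lower and 95 higher. The lowest members, such as CHAC1 with 19 to 119 reads, are limited by depth.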
